A study of Mus musculus with 11 samples.

Results

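The 9 genes described here are members of the Kruppel-like factor family expressed in mouse embryonic stem cells, chosen by name: Klf2, Klf3, Klf4, Klf5, Klf9, Klf10, Klf12, Klf13 and Klf16. They were taken by symbol from a table of read counts for 22369 mouse genes, and 9 of 9 were found and passed the filter of a mean of at least 1 CPM, a read count scaled to the size of its library, that 12479 genes passed. The samples were 11 clones of EBRTcH3, a mouse embryonic stem cell line that makes the tetracycline-controlled transactivator from the ROSA26 locus. All 11 clones had been transfected with a library of barcoded piggyBac reporters driven by the mouse PGK promoter together with the transposase, sorted for high eGFP and picked as single colonies. All were grown in conditioned medium of BRL cells with leukemia inhibitory factor (LIF), the MEK inhibitor PD0325901 and the GSK-3 inhibitor CHIR99021. Each clone, numbered 16 to 26, gave 1 mRNA library, the clones form 1 group, and no untransfected or untreated library was used here. A difference between clones is therefore a difference between single libraries, in which clonal and technical variation cannot be told apart.

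Kruppel-like factors are transcription factors that bind GC-rich DNA, including CACCC boxes, through zinc fingers at their C-terminal end, and their N-terminal parts recruit activators or repressors. In mouse embryonic stem cells Klf2, Klf4 and Klf5 belong to the network that holds the naive pluripotent state. Klf4 is a known target of LIF and STAT3 signalling, and Klf2 protein is destabilised by ERK signalling. Klf3 and Klf12 are repressors that bind the corepressor CtBP, and Klf9, Klf10, Klf13 and Klf16 can recruit the corepressor Sin3A.

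Upstream sequences are shown for the highest members per length of transcript, Klf2 and Klf4, for Klf12, the member that differed most between clones, and for Klf3, the other CtBP-binding member. Of the 9 members, 6 were matched to RefSeq promoter entries on GRCm38.p6, and Klf5, Klf10 and Klf16 were not. Windows were the 250 bases before the annotated start, printed 5′ to 3′ and ended before the first base that GENCODE annotates as UTR. The stretches are chr8:72318812-72319032 on the plus strand for Klf2, chr4:55532476-55532725 on the minus strand for Klf4, chr5:64803271-64803387 on the plus strand for Klf3 and chr14:100149797-100150046 on the minus strand for Klf12. The Klf12 entry starts inside the gene as GENCODE annotates it. Capitals mark CACCC or its reverse complement GGGTG, and the GC box GGGCGG or its reverse complement CCGCCC, and neighbouring matches can overlap.
Klf2: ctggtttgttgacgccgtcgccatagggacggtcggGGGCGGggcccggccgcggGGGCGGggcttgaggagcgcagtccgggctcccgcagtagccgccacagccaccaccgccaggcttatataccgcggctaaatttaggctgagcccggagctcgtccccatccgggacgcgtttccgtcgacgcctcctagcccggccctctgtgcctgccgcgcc
Klf4: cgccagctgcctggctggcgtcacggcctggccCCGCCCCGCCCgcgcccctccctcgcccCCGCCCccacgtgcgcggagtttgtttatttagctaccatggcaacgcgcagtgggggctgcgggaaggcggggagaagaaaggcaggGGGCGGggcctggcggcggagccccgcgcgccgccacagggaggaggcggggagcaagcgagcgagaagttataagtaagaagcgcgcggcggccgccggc
Klf3: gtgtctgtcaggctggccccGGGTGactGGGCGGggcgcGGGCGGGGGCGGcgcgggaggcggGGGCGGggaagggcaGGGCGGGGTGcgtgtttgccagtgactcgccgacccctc
Klf12: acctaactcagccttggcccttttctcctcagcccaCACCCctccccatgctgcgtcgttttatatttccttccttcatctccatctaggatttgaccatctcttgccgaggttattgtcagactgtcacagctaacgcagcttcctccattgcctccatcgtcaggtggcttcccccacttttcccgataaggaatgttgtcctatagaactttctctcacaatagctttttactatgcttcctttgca

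In the whole 250-base windows, on both strands, Klf4 held 0 CACCC matches and 4 GC boxes, and Klf2 held 1 and 2. Klf3 held 5 CACCC matches and 6 GC boxes, while Klf12 held 1 and 0. Klf9 had 1 CACCC match and 0 GC boxes, and Klf13 had 1 and 3. Among 32851 promoter windows of this length, 52.0% held a CACCC match and 32.7% a GC box. The STAT motif TTCCNGGAA and the ETS core CCGGAA, also searched on both strands, had 0 matches in all 6 member windows, against 0.913% and 12.0% of all windows. The windows of Klf3 and Klf4 were 78.4% and 74.0% G or C, and that of Klf12 was 48.0%. These are matches of letters and not measured binding.

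Total counts ran from 10846005 to 16868500 per library (median 14378599), so that 3 counts, the limit that a count of 0 allows, correspond to 0.173 to 0.284 CPM for counting error alone. The embryonic stem cell markers were high in every clone, with Pou5f1 at 863 ± 72.0 CPM (SD, n = 11), Nanog at 751 ± 90.0 and Sox2 at 845 ± 84.8. Zfp42, another of the 5 markers listed, spread more, at 974 ± 218 CPM. Its lowest value, 624 CPM, was that of clone 19, and its highest, 1435 CPM, that of clone 22. By the edgeR goodness-of-fit test 0 of the 5 were variable between clones (adjusted p = 0.340 for Zfp42). Summed markers of primitive endoderm stayed between 3.97 and 8.38 CPM and those of fibroblasts between 2.07 and 6.53, with Col3a1 and Twist2 at a median count of 0. Trophoblast markers summed to 58.6 to 117 CPM and primed epiblast markers to 122 to 180. Clone 19 had the most genes apart from the other clones, 112, followed by clone 17 with 64 (edgeR quasi-likelihood test), and clones 20 and 23 had the most similar deviations from the median clone (r = 0.46 over 12479 tested genes, as a description). Whether any of the clones share an origin was not given in the sources used here.

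The naive pluripotency factors were the most abundant members per length. Klf2 counts lay between 214 CPM in clone 17 and 432 CPM in clone 22 (median 332, mean 335 ± 71.2). Klf4 lay between 240 CPM in clone 17 and 599 CPM in clone 24 (median 455, mean 435 ± 89.7). Klf5 lay between 325 CPM in clone 19 and 538 CPM in clone 16 (median 433, mean 425 ± 75.1). Clone 17 was thus the lowest clone for Klf2 and Klf4 but not for Klf5, which was at 466 CPM there, beside its median of 433. In these bulk libraries, fewer cells with a transcript and less of it per cell cannot be told apart.

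Both CtBP-binding repressors were lowest in clone 19. Klf12 was at 8.89 CPM there, from 154 counts, next lowest at 31.3 CPM in clone 26, 40.5 CPM in clone 25 and 41.5 CPM in clone 24. In the other 7 clones it lay between 54.0 CPM (clone 23) and 78.8 CPM (clone 21), and over all 11 it had a median of 56.6 CPM and a mean of 51.2 ± 19.4. Klf3 had a narrower spread, with 76.5 CPM in clone 19, at most 114 CPM in clone 20, a median of 95.7 and a mean of 97.3 ± 9.48. The highest clone exceeded the lowest 8.86-fold for Klf12 and 1.49-fold for Klf3.

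The Sin3A-recruiting group held the steadiest member and one of the more variable. Klf9, a factor induced by glucocorticoid and thyroid hormones, was lowest in clone 22 (213 CPM) and highest in clone 17 (296 CPM), with a median of 244 and a mean of 250.1 ± 22.6. Klf10, a TGF-beta-inducible factor, reached 156 CPM in clone 16 and 359 CPM in clone 24 (median 277, mean 269 ± 56.0). Klf13, known from T cells as an activator of the chemokine gene Ccl5, had 107 CPM in clone 22 and 159.6 CPM in clone 26 as its extremes (median 129, mean 132 ± 15.6). Clone 16, the lowest for Klf10, was also the lowest for Klf16, which had 25.9 CPM there and at most 61.7 CPM, in clone 26 (median 44.7, mean 45.0 ± 9.25). The SD of log2(CPM + 1) was 0.13 for Klf9 and 0.14 for Klf3, against 0.83 for Klf12. The median over the 9 members was 0.31, beside 0.24 over all 12479 tested genes, and the median coefficient of variation was 20.5% beside 13.7% in the 7304 tested genes of a like range of levels, and 17.9% over all tested.

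**Figure D1:**
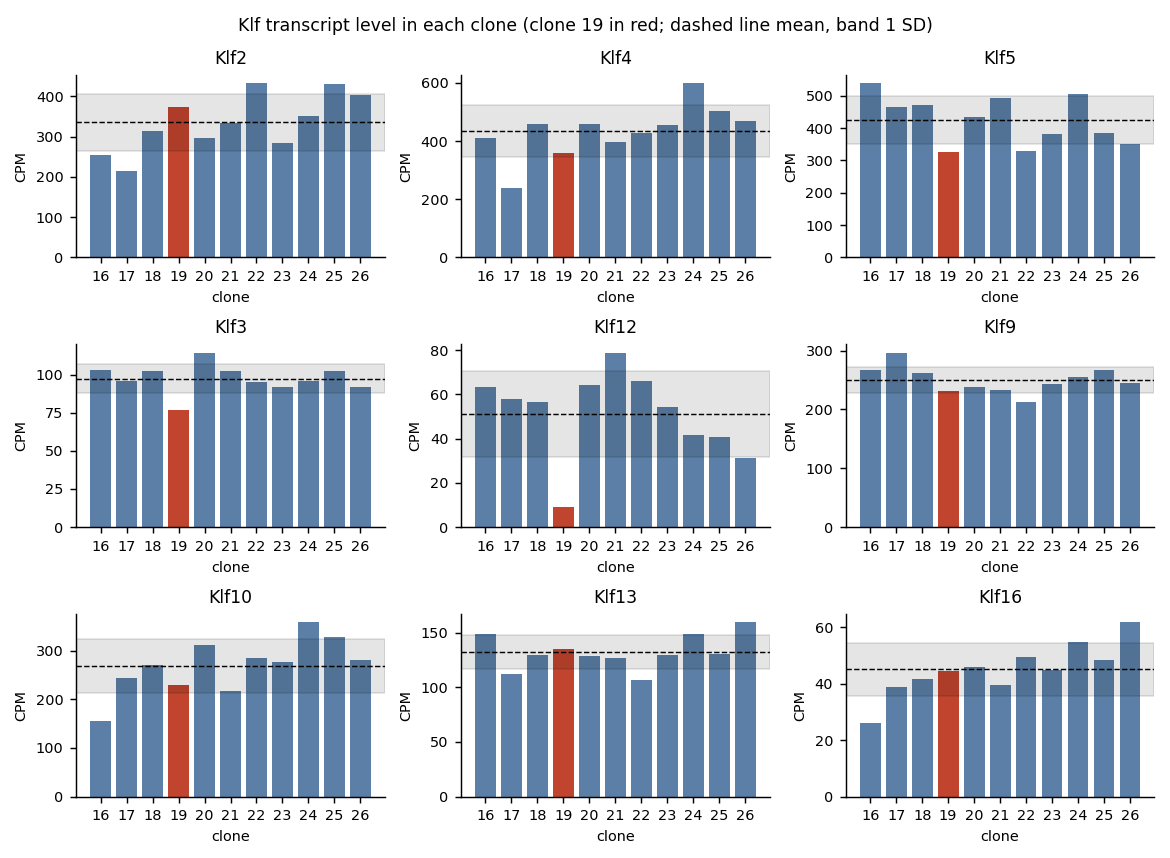
Level of each member (CPM) in the 11 clones, 1 panel per gene with its own axis from 0, a dashed line at the mean, a band of 1 SD, and clone 19 in red. Klf12 in clone 19 stands at 8.89 CPM while the other 10 clones lie between 31.3 and 78.8 CPM.

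Levels of different genes were compared as CPM per kb of annotated exon. In that unit Klf2 was highest at 181 ± 38.5, followed by Klf4 at 143 ± 29.4, Klf5 at 81.7 ± 14.4, Klf10 at 64.4 ± 13.4 and Klf9 at 52.0 ± 4.69 (mean ± SD, n = 11). Klf13 at 17.6 ± 2.07 and Klf16 at 16.8 ± 3.46 per kb came next, and Klf3 at 8.66 ± 0.843 and Klf12 at 7.32 ± 2.78 per kb were lowest. The step from Klf9 to Klf13 was the clearest: Klf9 was higher per kb in 11 of 11 clones, by 2.39-fold to 4.14-fold, and the ranges did not overlap.

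Other neighbours in this order were closer. Klf2 exceeded Klf4 per kb in 10 clones and Klf4 exceeded Klf5 in 10, with clone 24 and clone 17 the respective exceptions. Klf5 exceeded Klf10 per kb in 8 clones, and Klf10 exceeded Klf9 in 9. Klf13 exceeded Klf16 in 6 of 11, so that these neighbours did not differ beyond their spread. Klf16 exceeded Klf3 in 11 of 11 clones, and Klf3 exceeded Klf12 in 9, with clones 21 and 22 the exceptions. Dividing by the longest transcript in place of the union of exons kept 7 of 9 ranks, and it raised Klf3 to 18.6 and Klf5 to 127 per kb. The mean of Klf3 then lay above that of Klf16, which stayed at 16.8. Which transcripts the clones use was not measured, so the order depends on the length chosen.

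**Figure D2:**
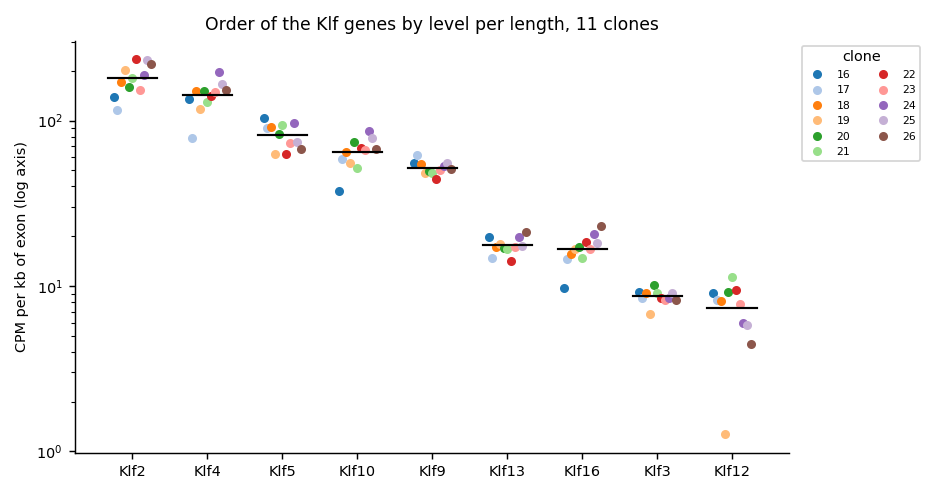
Level of the 9 members as CPM per kb of annotated exon on a log axis, with a coloured point per clone and a line at the mean. Klf2, Klf4 and Klf5 lead and Klf3 and Klf12 come last, and between Klf9 and Klf13 the ranges do not overlap.

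Whether a member spread more between clones than tested genes of like abundance was asked with an edgeR goodness-of-fit test on an intercept-only negative binomial fit. By this test 1 of 9 members was variable, against 7.68% of all tested genes. It was Klf12 (adjusted p = 1.46e-08, Benjamini-Hochberg over 12479 genes). The other 8 had adjusted p of at least 0.401, the value for Klf4, with 0.453 for Klf10 and 0.459 for Klf2. Without clone 19, 0 of 9 were variable and Klf12 had an adjusted p of 0.195, so the call rested on that clone. At an unadjusted p of 0.05 1 of 9 members passed against 13.1% of tested genes, and with the DESeq2 dispersion trend 1 of 9 passed against 8.24%.

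Each clone was also set against the other 10 with the edgeR quasi-likelihood test over all pairs of gene and clone. Of the 99 pairs of a member and a clone, 1 passed, against 0.213% of all 137269 pairs. The call was Klf12 in clone 19, at 8.89 CPM against 55.4 ± 14.1 CPM (SD, n = 10) in the others, with a log2 fold change of -2.64 ± 0.46 (SE) and an adjusted p of 0.0427. Klf12 was 6.23-fold lower there than the mean of the others, and by this test 0.673% of tested genes were lower in clone 19 and 0.898% differed in either direction. The adjusted p lay close to the threshold, and the call was lost in 8 of 15 alternatives, with log2 fold changes that stayed between -2.70 and -2.57. Some markers of other cell types also stood at an extreme in clone 19: Krt8 (34.6 CPM) and Tfap2c (76.3 CPM) of the trophoblast list and Col1a1 (4.50 CPM) of the fibroblast list were highest there, and Otx2 (12.2 CPM) of the primed epiblast list was lowest. Other tested markers of the trophoblast and fibroblast lists were low in clone 19. Eomes was at 5.31 CPM there beside a median of 10.1, and Thy1 at 1.79 CPM beside a median of 3.08. Of these lists Krt8 (1 of 3 tested), Otx2 and Sox3 (2 of 3) and Col1a1 (1 of 2) were variable between clones, and 0 of 3 of the primitive endoderm list were. Of all tested genes 7.68% were variable. In clone 19 the trophoblast markers summed to 117 CPM, against 58.6 to 88.9 in the others. Most of that sum came from Tfap2c and Krt8, and Cdx2 and Elf5 of the same list did not pass the filter of 1 CPM. The fibroblast markers summed to 6.53 CPM in clone 19, against 2.07 to 5.75, and the primed epiblast markers to 122 CPM, the lowest of the 11 clones. Among the embryonic stem cell markers, Zfp42 had its lowest value in clone 19 (624 CPM) and Nanog its highest (936 CPM). The part of all these markers in the Klf12 value was not tested.

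At an unadjusted p of 0.05 7 of 99 pairs passed, 6 lower and 1 higher, against 5.92% of all pairs. Klf4 in clone 17 was at 240 CPM against 454 ± 65.6 (edgeR adjusted p = 0.183), and Klf2 in the same clone at 214 against 347 ± 61.9 (edgeR adjusted p = 0.669). In clone 16, Klf16 was at 25.9 against 46.9 ± 7.10 CPM (edgeR adjusted p = 0.297) and Klf10 at 156 against 280.5 ± 43.9 CPM (edgeR adjusted p = 0.329). Klf3 in clone 19 was at 76.5 against 99.4 ± 6.82 CPM (edgeR adjusted p = 0.542), and the 1 higher pair was Klf9 in clone 17, at 296 against 246 ± 17.5 CPM (edgeR adjusted p = 0.829). The DESeq2 Wald test called 4 of 99 pairs, against 1.05% of all pairs. These were Klf12 in clone 19 (adjusted p = 2.34e-08), Klf4 in clone 17 (0.00346), Klf10 in clone 16 (0.0325) and Klf16 in clone 16 (0.0405).

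Klf5 and Klf12 lie next to each other among the tested genes of chromosome 14, so the 10 tested genes on each side were followed as a measure of that stretch of the chromosome. Clones 16, 17 and 19 had these neighbours raised, by a median log2 deviation from the median clone of 0.43, 0.44 and 0.56, while the other 8 clones lay between -0.12 and 0.00. In clone 19 Klf12 deviated by -2.54 and Klf5 by -0.41, while 17 of the 19 other genes within 10 of Klf12 lay above the median clone and the lowest, Pou4f1, was at -0.23. Farther out the picture was mixed in clone 19, where Enox1, 20 places before Klf12 and singled out after its value was seen, deviated by -2.68. The nearest tested neighbours were Pibf1, at 41.4 CPM in clone 19 against 27.0 ± 9.09 in the others, and Tbc1d4, at 2.19 against 1.88 ± 0.746. Klf12 and Klf5 thus went against their neighbours in clone 19. The level of Klf5 itself was not particular to that clone: it deviated by -0.40 in clone 22, where the neighbours lay at 0.00. With the neighbours' shift subtracted, Klf12 stood at -2.83 against the median clone in clone 19 and Klf5 at -0.86. In clone 17 Klf5 deviated by 0.11, and by -0.21 with the shift subtracted.

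Neighbours moved with 2 other members. The genes around Klf2 on chromosome 8 were shifted by 0.41 in clone 22, where Klf2 had its highest value and deviated by 0.38. The genes around Klf9 on chromosome 19 were shifted by 0.61 in clone 17, where Klf9 had its highest value and deviated by 0.28. After subtraction these became 0.00 for Klf2 and -0.33 for Klf9. The part of chromosome dosage in these values was not tested. The neighbours of Klf3, Klf4, Klf10, Klf13 and Klf16 stayed within 0.2 of the median clone in all 11 clones.

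**Figure D3:**
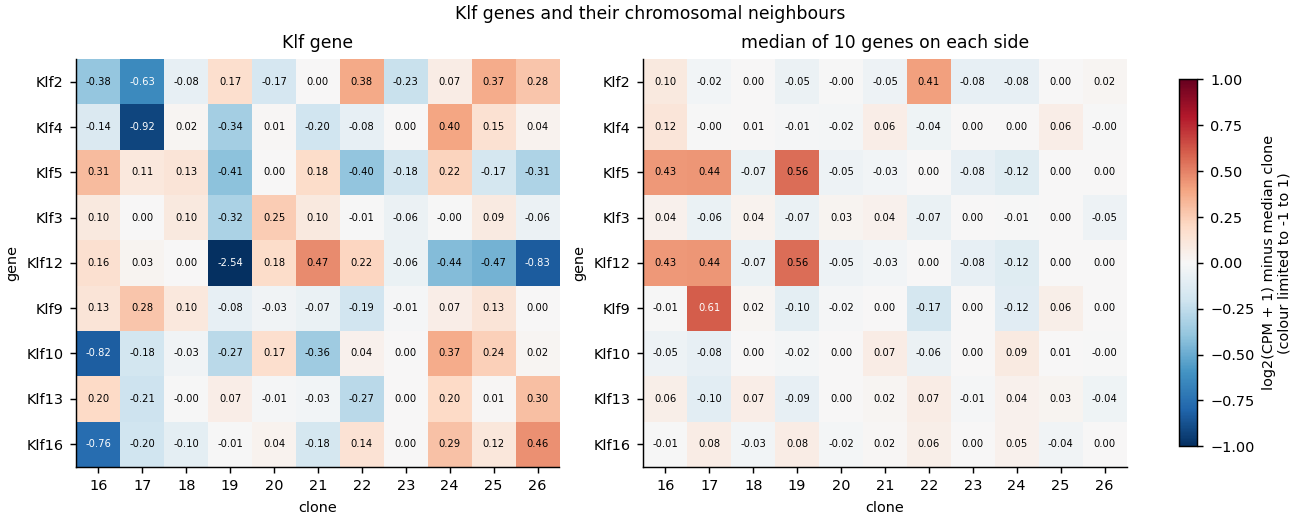
Log2 deviation from the median clone of each member (left) and of the median of its 10 tested neighbours on each side (right), by clone in log2(CPM + 1), with red above and blue below 0 and the colour limited to 1 either way. The dark cell of Klf12 in clone 19 on the left (-2.54) faces a shift of 0.56 in its neighbours on the right.

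**Figure D4:**
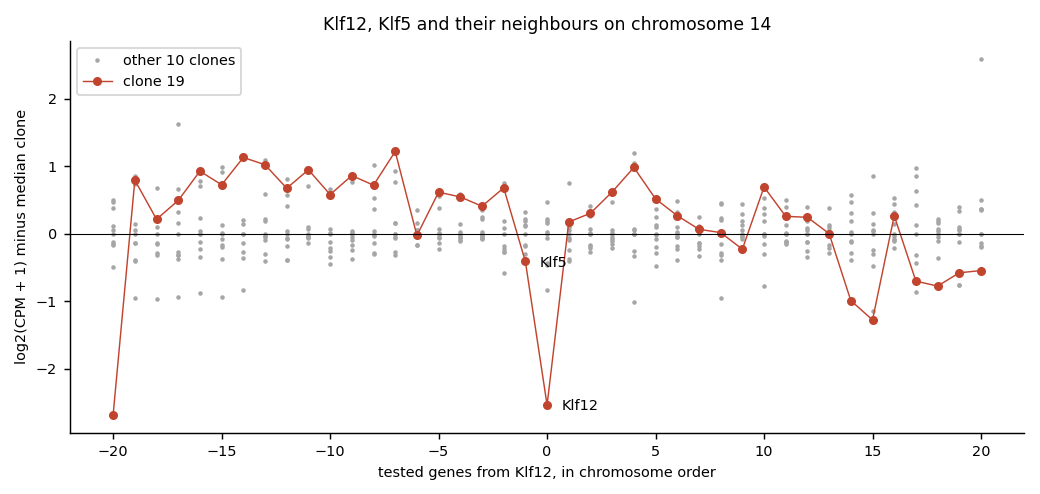
Log2(CPM + 1) minus the median clone for the 20 tested genes on each side of Klf12, by place in chromosomal order, with clone 19 as a red line and the other 10 clones as grey points. Klf12 and Klf5 lie below 0 in clone 19, and 17 of the 19 other genes within 10 places lie above it.

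Whether one member was high where another was low was asked over the 36 pairs of members with log2(CPM + 1), n = 11 clones, and permutation tests. Of the correlations 20 were positive and 16 negative, and 0 passed after Benjamini-Hochberg adjustment over the 36 pairs by Pearson's r or Spearman's rho. At an unadjusted permutation p of 0.05, 5 positive and 2 negative pairs passed by Pearson's r, and 6 positive and 1 negative by rho. The most negative Pearson's r were those of Klf2 and Klf5 (r = -0.63, permutation p = 0.0398, adjusted p = 0.23, rho = -0.55, p = 0.0887) and Klf2 and Klf9 (r = -0.62, permutation p = 0.0424, adjusted p = 0.23, rho = -0.44, p = 0.184). Without clones 16 and 17, r was -0.54 for Klf2 and Klf5 and -0.16 for Klf2 and Klf9. By rho the most negative pair was Klf12 and Klf13 (rho = -0.73, permutation p = 0.0144, adjusted p = 0.0986), which had r = -0.34 (permutation p = 0.310, adjusted p = 0.614). With each member's neighbour shift subtracted, r was -0.09 for Klf2 and Klf5, and it turned to 0.47 for Klf2 and Klf9.

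By both measures the closest parallel was between Klf10 and Klf16 of the Sin3A group (r = 0.85, permutation p = 0.00253, adjusted p = 0.0911, rho = 0.84, permutation p = 0.00217, adjusted p = 0.0781). Clone 16, the library with the fewest counts (10846005), was lowest for both. Over the 11 clones, r with log2 total counts was 0.45 for Klf10 and 0.63 for Klf16. Among all members it ran from -0.69 for Klf3 to 0.63 for Klf16. The part of library size in these relations was not tested. Without clones 16 and 24, the farthest from the median of Klf10, r was 0.53, and without clones 16 and 26, the farthest for Klf16, it was 0.84. By r, Klf3 and Klf12, the CtBP group, came next (r = 0.82, permutation p = 0.00694, adjusted p = 0.125, rho = 0.66, permutation p = 0.0300), and r was 0.44 without clones 19 and 20. By rho, Klf4 and Klf10 came next (rho = 0.79, permutation p = 0.00524, adjusted p = 0.0943), with r = 0.50 (permutation p = 0.123, adjusted p = 0.368). With the neighbour shift subtracted, Klf10 and Klf16 (rho = 0.87), Klf4 and Klf16 (rho = 0.86) and Klf4 and Klf10 (rho = 0.84) passed by rho. Their permutation adjusted p by rho was 0.0200, 0.0200 and 0.0252. By r they did not pass (permutation adjusted p = 0.0727, 0.327 and 0.459).

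The MEK inhibitor in the medium acts upstream of ERK, so members were set against a score of 13 ERK feedback genes, the mean log2 deviation of the list from the median clone. Over all 11 clones r with this score was 0.94 for Klf12, 0.84 for Klf3 and 0.73 for Klf5 (permutation adjusted p = 0.00576, 0.0118 and 0.0134). Their rho was 0.70, 0.84 and 0.88 (permutation adjusted p = 0.0927, 0.0216 and 0.0155). The members and this list were chosen with earlier results of these data known, which the adjusted p does not take into account. Clones 19 (-1.38) and 26 (-0.84) stood apart in the score from the other 9, which lay between -0.16 and 0.23, so the relation was also read within those 9. Clones 19 and 26 were also the lowest for Klf12 (8.89 and 31.3 CPM) and for Klf3 (76.5 and 91.9 CPM, the latter level with clone 23), and for Klf5 clone 19 was lowest, followed by clones 22 and 26. Within the other 9 clones 0 of 18 relations of the members with this score and a LIF score passed by r or rho. The closest was Klf5 (r = 0.72, exact permutation p = 0.0320, adjusted p = 0.258, rho = 0.82, exact permutation p = 0.0108, adjusted p = 0.194). Klf10 (r = -0.66, exact permutation p = 0.0431, rho = -0.63) and Klf16 (r = -0.65, exact permutation p = 0.0381, rho = -0.62) went the other way, both with adjusted p = 0.258. Klf12 had r = 0.66 (exact permutation p = 0.0574, adjusted p = 0.258, rho = 0.45). Klf3 had r = 0.53 and rho = 0.70 (exact permutation p of rho = 0.0433, adjusted p = 0.309). Without clones 16 and 21 as well, r was 0.55 for Klf5, -0.16 for Klf10 and -0.32 for Klf16.

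The ERK list itself had 7 of 13 tested genes variable between clones by the edgeR goodness-of-fit test, against 7.68% of all tested genes. Of the feedback inhibitors among them, Spry4 was at 4.68 CPM in clone 19 and up to 134 CPM elsewhere, Dusp6 at 10.5 and up to 136, Dusp4 at 2.02 and up to 44.6, Spred1 at 49.0 and up to 164, and Spry2 at 75.1 and up to 225. Of the ETS factors, Etv4 was at 6.58 CPM in clone 19 and up to 175 CPM elsewhere, and Etv1 ranged from 18.7 CPM in clone 26 to 54.9 CPM. The most abundant genes of the list did not pass this test, with Etv5 at 582 ± 65.2 CPM and Il17rd at 174 ± 25.9 CPM.

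Over all 11 clones Klf12 had r = 0.67 with the score of LIF and STAT3 genes (permutation p = 0.00727, adjusted p = 0.0327), but rho = 0.63 did not pass (permutation p = 0.0440, adjusted p = 0.158). The call by r was lost in 10 of 14 alternatives, and r was 0.54 without clones 19 and 20. The list had 1 of 11 tested genes variable, against 7.68% of all tested genes. It was Myc, at 5.39 to 27.4 CPM (edgeR adjusted p = 0.018), and the count was 0 without clone 18 or clone 26. Stat3, which carries the LIF signal, was at 262 ± 30.7 CPM with its lowest value, 198 CPM, in clone 19. Klf4, a known target of this pathway, had r = -0.21 with the score (permutation p = 0.570, adjusted p = 0.733) and rho = -0.15 (permutation p = 0.674, adjusted p = 0.809).

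**Figure D5:**
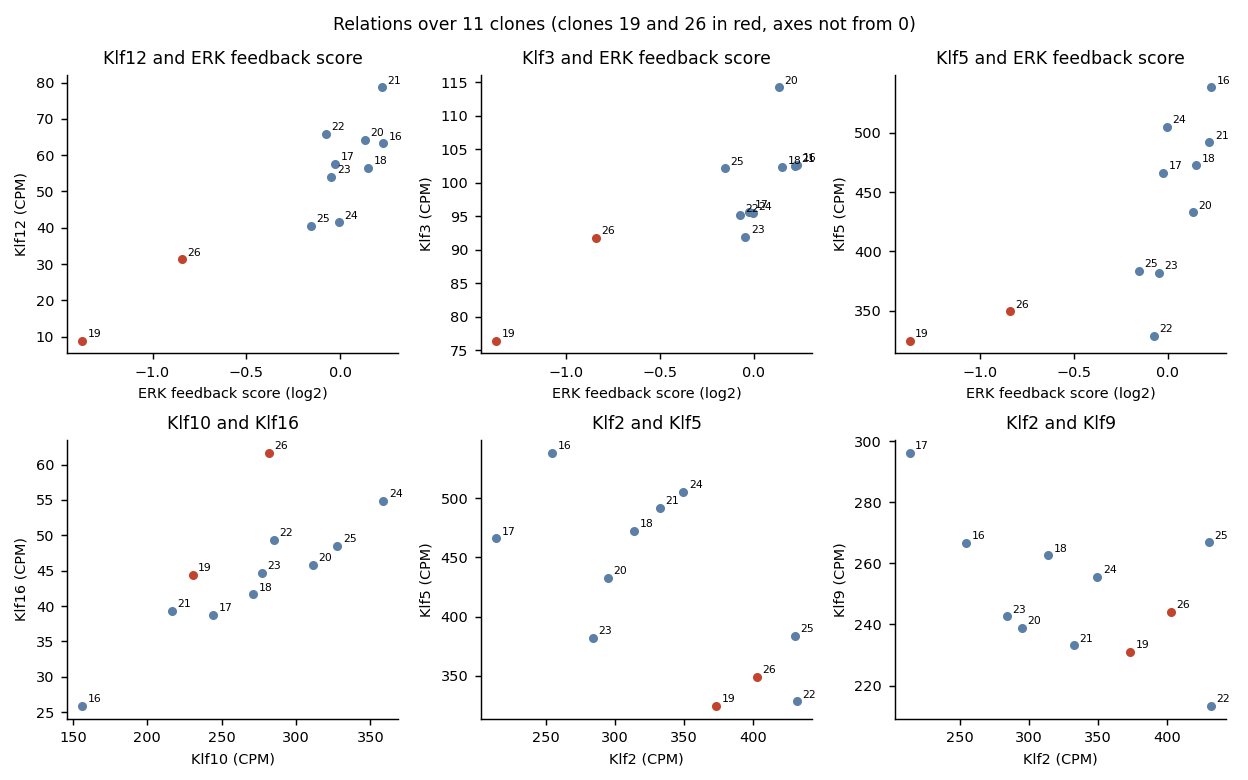
Upper row, level of Klf12, Klf3 and Klf5 (CPM) against the ERK feedback score (log2), and lower row, levels of 3 pairs of members (CPM), with 1 point per clone and clones 19 and 26 in red. Klf12 and Klf3 are lowest in clones 19 and 26, which lie at scores of -1.38 and -0.84, and clone 16 is lowest for both Klf10 and Klf16.

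Among the other 17 genes of the Klf and Sp family, 11 passed the filter. By the edgeR goodness-of-fit test 1 of 11 was variable, against 7.68% of all tested genes. This was Sp5, a target of Wnt signalling that the GSK-3 inhibitor in the medium mimics, at 0.630 to 41.9 CPM (adjusted p = 1.94e-28) and highest in clone 19, where Klf12 was lowest. In CPM per kb of exon, Sp1 at 52.5 ± 5.43, Sp3 at 35.8 ± 1.86 and Sp2 at 32.9 ± 1.98 had the highest means of the Sp genes. In the same unit the means of Klf11 (23.4 ± 1.998), Klf15 (20.6 ± 3.05), Klf6 (14.7 ± 3.22) and Klf8 (12.9 ± 2.42) lay above those of Klf3 and Klf12. Per kb of the longest transcript, Klf11 (24.9) and Klf15 (23.2) still lay above Klf3 (18.6), but Klf6 (15.2) and Klf8 (14.1) lay below it. Klf7 was at 8.94 ± 3.54 CPM, with its highest value, 17.3 CPM, in clone 19. Sp4 was at 14.8 ± 3.10 CPM and Sp8 at 2.24 ± 1.04 CPM.

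Genes that act with or on the members were counted by the same tests, beside the 7.68% of all tested genes that were variable. Of 10 corepressor genes 0 were variable by the edgeR goodness-of-fit test, 0 at an unadjusted p of 0.05 and 0 with the DESeq2 trend. Ncor1, part of a histone deacetylase complex, was at 560.3 ± 44.5 CPM and the CtBP gene Ctbp2 at 274 ± 28.0. Of 5 acetyltransferase coactivators and of 9 ubiquitin ligase and deubiquitinase genes 0 were variable by any of the 3. Ep300 was at 353 ± 70.5 CPM, Kat2b at 170.3 ± 28.5, Usp10 at 179 ± 36.2 and Itch at 119 ± 10.1. Of 14 partners of the naive network 1 was variable, Dppa3, at 0.136 to 23.3 CPM and highest in clone 19. There were 6 of 14 at an unadjusted p of 0.05, a rule that 13.1% of all tested genes passed, and 2 with the DESeq2 trend. The count was 0 among genes of at least 5 CPM, a filter that Dppa3 itself did not pass (mean 3.22 CPM, median count 7). Tfcp2l1 was at 1971 ± 423 CPM and Esrrb at 1388 ± 176.

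For the 3 members with the largest SD, the genes most alike in pattern over the 11 clones were named by Pearson's r of log2(CPM + 1), among genes of at least 5 CPM on other chromosomes, as a description. Klf12 was most like Oas2 (r = 0.96), Inf2 (r = 0.96) and Gbx2 (r = 0.95), and most opposite to Lrrc15 (r = -0.98) and Zfp358 (r = -0.95), of 9916 genes. In clone 19, the lowest for Klf12, Oas2, Inf2 and Gbx2 were also lowest and Lrrc15 and Zfp358 highest. Lrrc15 was at 107 CPM there, with a mean of 15.3 over the 11 clones. Klf4 was most like Nbea (r = 0.97), Retreg3 (r = 0.96) and Ncam1 (r = 0.96), and most opposite to Coro1b (r = -0.96) and Scrn2 (r = -0.95), of 9581 genes. Nbea, Retreg3 and Ncam1 were all lowest in clone 17 and highest in clone 24, as Klf4 was. Klf10 was most like Sar1b (r = 0.94), Pmepa1 (r = 0.92) and N4bp3 (r = 0.91), and most opposite to Rtca (r = -0.94) and Pbxip1 (r = -0.94), of 9847 genes. Gbx2 is itself in the lists of LIF targets and naive partners.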

How the data were processed

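The values were raw read counts per gene for 11 libraries, as deposited by the authors. Alignment software named in the submitters' processing notes was Bowtie 0.12.7 with TopHat 1.4.0, and these notes name the builds mm9 and hg19. The table's name refers to protein-coding genes of an Ensembl release and to hg19, while the gene identifiers are those of mouse. How reads were counted, with which strand setting and treatment of multiple matches, was not given in the sources used here, so reads that overlapping or near-identical genes share cannot be assigned. Per the labels' protocols, RNA was isolated with RNeasy and libraries were made with TruSeq RNA. Symbols were found for 20777 identifiers and 1592 kept their own. Gene order and exon lengths came from GENCODE on GRCm38, a later build than mm9.

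CPM used TMM library sizes (factors 0.971 to 1.04) in R 4.3.3 with edgeR 4.0.16, after a filter that kept genes averaging 1 CPM or more. The common coefficient of variation was 24.8%. Variable genes came from the goodness-of-fit test (10 degrees of freedom), and clones were set one by one against the remaining 10 with the quasi-likelihood test, both with Benjamini-Hochberg adjustment over all features. SEs restate the fold change and F statistic and hold no spread within a clone. Correlations used 100000 permutations, or exact enumeration with 9 clones, two-sided. DESeq2 1.42.0 gave alternatives, and the rest was done in Python 3.11.15 with pandas 2.3.3, SciPy 1.17.1 and NumPy 2.4.6, with figures by matplotlib 3.10.9. The scripts were tested on simulated data. The members and the lists were chosen with earlier results of these data known. Genes were named by rule: all members, other family genes past the filter, from each other list the variable genes and the 2 most abundant, the nearest tested neighbours of a called member, and the 3 most alike and 2 most opposite genes of the 3 members with the largest SD. Pou4f1, Enox1 and the cell type markers given by name were chosen after their values were seen.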

Additional observations from a re-analysis of the deposited data

How the results depend on the processing

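The clones share no replicate numbers between groups. No paired analysis was possible because there is 1 group. The count of variable members was 1 in 15 of 16 alternatives and 0 without clone 19, so leaving out clones gave 0 to 1. The count of member and clone pairs was 0 with total counts only and 4 with the DESeq2 Wald test, and 0 to 1 when clones were left out: the call of Klf12 in clone 19 was lost with total counts only (adjusted p = 0.0606) and without clone 16, 17, 18, 20, 22, 23 or 25 (0.0532 to 0.0787). The count of member pairs correlated by r was 0 to 1 when clones were left out, with 1 without clone 26, where r of Klf10 and Klf16 was 0.93 (permutation adjusted p = 0.00936). By rho, pairs among Klf4, Klf10 and Klf16 passed with the neighbour shift subtracted, as given above. Klf10 and Klf16 also passed by rho with the shift of genes of like GC content subtracted (rho = 0.85, permutation adjusted p = 0.0454). By r they did not pass there (permutation adjusted p = 0.0724). This GC alternative was not planned. The count of score relations that passed was 4 over all 11 clones by r and 2 by rho, 1 without clone 19, 2 without clone 21 and 1 to 4 over clones left out. It was 0 without clones 19 and 26, an alternative chosen after seeing the data that leaves 9 clones. The r of Klf2 and Klf9 turned from -0.62 to 0.47 with the neighbour shift subtracted (permutation adjusted p = 0.462). The cause of these changes was not tested. Precision is limited by 1 library per clone, and Klf12 in clone 19 rests on 154 counts.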

Other observations

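The members' summed level per kb of exon differed between clones by composition and amount. It was 572 ± 64.5 CPM per kb (SD, n = 11), lowest at 450.2 in clone 17 and highest at 677 in clone 24. Klf2, Klf4 and Klf5 together made 70.7% ± 2.85 of it, from 63.1% in clone 17 to 72.9% in clone 22. Within them Klf2 took 25.7% of the sum in clone 17 and 38.9% in clone 22, and Klf4 took 17.5% in clone 17 and 29.0% in clone 24. Klf5 took 10.5% in clone 22 and 20.03% in clone 16, so the clone with the largest share of Klf2 had the smallest share of Klf5. Klf2 led in 10 clones and Klf4 in clone 24. Shares of a fixed whole are not independent of each other, and these have no test.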
